A study of Mus musculus with 6 samples.

Results

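Chymotrypsins and pancreatic elastases are digestive serine proteases, and 6 genes that encode them were followed in acinar cells of the mouse pancreas by RNA-seq. The members were the rows whose symbol was Ctrb1, Ctrl, Ctrc, Cela1, Cela3a or Cela3b, which is 6 of the 55367 gene symbols in the count tables, and every member was present and had counts in all 6 libraries. The series, whose title names SMARCA5 in pancreatic malignancy and regeneration, states the acinar expression pattern as its object. All 6 libraries form 1 untreated group, whose genotype is given as Pdx1-Cre; Klf5-mCherry-CreERT2, in which Cre is driven by the promoter of the pancreatic transcription factor Pdx1 and the Klf5 allele carries mCherry and a tamoxifen-inducible Cre. Flow sorting supplied 300 GFP-positive cells per library for an adapted Smart-seq2 preparation (12 preamplification cycles), and the genotype label names no GFP reporter. The age, sex and strain of the mice are not given in the sources used here.

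Acinar cells make these proteases as inactive precursors, pack them into zymogen granules and release them into the gut, where trypsin activates them. Chymotrypsins cut proteins after large hydrophobic and aromatic residues, whereas the elastases favour small ones, so together they cover a wide range of food protein. Their genes belong to the set of acinar genes driven by PTF1, a complex of Ptf1a, an E-protein and Rbpjl that binds an E-box and a TC-box spaced by about a turn of the DNA helix.

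Total counts were 4670819 to 7072270 per library, and ribosomal RNA genes took 38.1% to 60.9% of them. The libraries carry 1 of 2 numbers in their names, and what it stands for is not stated. Replicates 1 to 3 (set A) share one and replicates 4 to 6 (set B) the other, and the sets are handled as a possible batch, not as study groups. No label ties a library to an animal of its own, so p-values measure only the spread between these samples. All 10 acinar markers had counts, with a summed level of 159522 to 202072 CPM (counts scaled to a common library total) in set A and 43354 to 77673 CPM in set B. Markers of other cell types were lower, with 54.6 to 161 CPM for 7 ductal genes and 2.69 to 19.7 CPM for 7 leukocyte genes, of which Ms4a1 was at 0. The 9 endocrine markers summed to 8.95 to 31.9 CPM in set A and 43.5 to 1346 CPM in set B. For 6 endothelial markers the sum was 3.42 to 11.3 CPM in set A and 7.93 to 43.9 CPM in set B. It was 6.30 to 68.2 CPM and 5.09 to 30.4 CPM for 7 fibroblast markers. For 4 erythroid markers it was at most 0.360 CPM in set A and 11.7 CPM in set B. Background was read from the olfactory and vomeronasal receptor genes, whose counts per Mb of span were 26.4 to 39.4 in set A, 52.2 and 109 in replicates 4 and 6, and 327 in replicate 5.

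The sequences just upstream of the members are shown first, because the PTF1 site is the known shared element of acinar genes and because Cela3a and Cela3b turned out to have near-identical upstream sequence with very different RNA levels. RefSeq (GRCm38.p6) gave a 250-base window before the transcription start for 5 of the 6 members, all on the minus strand, and Ctrc had no entry. In the windows below, written 5′ to 3′ toward the gene, capitals mark CACCTG (the E-box core of the PTF1 site), CAGCTG (an E-box with another centre) and TTTCCC (the TC-box core), each on either strand. The windows lie at chr8:111691011-111691260 for Ctrb1, chr8:105933863-105934112 for Ctrl, chr15:100687921-100688170 for Cela1, chr4:137409792-137410041 for Cela3a and chr4:137430521-137430770 for Cela3b. The bases nearest the gene in the Cela1 and Cela3b windows lie inside the GENCODE span of those genes.
Ctrb1: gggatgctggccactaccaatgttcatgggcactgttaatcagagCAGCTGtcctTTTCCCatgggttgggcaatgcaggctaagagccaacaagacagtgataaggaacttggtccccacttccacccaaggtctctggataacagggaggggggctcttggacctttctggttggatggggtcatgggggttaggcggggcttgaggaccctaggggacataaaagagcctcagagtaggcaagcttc
Ctrl: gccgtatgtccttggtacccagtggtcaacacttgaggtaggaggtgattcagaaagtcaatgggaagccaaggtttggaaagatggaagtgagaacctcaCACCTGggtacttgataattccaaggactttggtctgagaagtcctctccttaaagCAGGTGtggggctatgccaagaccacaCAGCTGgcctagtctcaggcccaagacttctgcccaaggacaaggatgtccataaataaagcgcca
Cela1: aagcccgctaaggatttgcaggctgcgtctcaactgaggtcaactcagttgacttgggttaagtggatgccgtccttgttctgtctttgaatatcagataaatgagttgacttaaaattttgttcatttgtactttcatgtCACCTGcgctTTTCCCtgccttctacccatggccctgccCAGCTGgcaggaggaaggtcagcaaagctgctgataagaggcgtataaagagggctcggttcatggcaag
Cela3a: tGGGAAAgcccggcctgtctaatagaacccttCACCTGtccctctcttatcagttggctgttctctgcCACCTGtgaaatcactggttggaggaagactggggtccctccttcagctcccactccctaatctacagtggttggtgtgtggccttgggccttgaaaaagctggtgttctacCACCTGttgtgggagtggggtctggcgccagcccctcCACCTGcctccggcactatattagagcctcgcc
Cela3b: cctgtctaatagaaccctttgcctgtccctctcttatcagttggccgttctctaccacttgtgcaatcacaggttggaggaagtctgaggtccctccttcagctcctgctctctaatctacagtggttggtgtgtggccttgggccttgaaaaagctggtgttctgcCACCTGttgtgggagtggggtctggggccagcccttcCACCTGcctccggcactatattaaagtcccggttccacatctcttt

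The Cela1 window held the PTF1 E-box core at bases 109 to 104 before the start and the TC-box core at bases 99 to 94, so both began 10 bases apart on the same strand. Ctrb1 had the same spacing of 10 bases with the other E-box, which lay at bases 205 to 200, ahead of a TC-box core at bases 195 to 190. Ctrl held the PTF1 E-box core at bases 149 to 144 and, on the other strand, at bases 93 to 88, with the other E-box at bases 66 to 61 and no TC-box core in this window. Cela3a held 4 PTF1 E-box cores and a TC-box core on the other strand at bases 249 to 244, and Cela3b held 2 PTF1 E-box cores. The PTF1 E-box core was in 4 of the 5 member windows and in 17.2% of 32851 RefSeq windows of the same length. Of those 4, Cela3a and Cela3b are near-identical copies and not independent of each other. The TC-box core was in 3 of 5 and in 21.9%, and the other E-box was in 3 of 5 and in 13.0%. CACCTG and TTTCCC, at any spacing and strand, were both in 2 of the 5 windows and in 3.61% of all windows. The 2 were Cela1 and Cela3a, of which only Cela1 had them 10 bases apart on the same strand. The Ctrb1 pair has the other E-box and is not in this count. The nuclear receptor half-site AAGGTCA, bound by Nr5a2 and not in capitals above, was in the Cela1 window alone among the 5, at bases 56 to 50, and in 4.08% of all windows. The Cela3a and Cela3b windows were identical at 219 of 237 aligned bases (92.4%). The TC-box core of Cela3a lies at the far edge of its window, ahead of the aligned stretch. The bases of Cela3b that would match it were therefore outside the Cela3b window and were not examined. These matches are letters in a window and no measure of binding.

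The 6 genes together took a large part of the acinar RNA, nearly all of it from Ctrb1, Ctrl, Cela1 and Cela3b. In set A they took 15.5%, 14.1% and 13.0% of all counts in replicates 1 to 3, and in set B 7.43%, 4.33% and 6.67% in replicates 4 to 6. All 3 values of set A lay above all 3 of set B, and the lowest was that of replicate 5. The mean share was 10.2% ± 4.60 (SD, n = 6), and the exact Clopper-Pearson 95% interval of a single library was narrow, for example 15.47% to 15.52% in replicate 1 and 4.31% to 4.35% in replicate 5. Such intervals cover counting error only, since Smart-seq2 reads carry no molecular identifiers. Of the counts outside ribosomal RNA genes the 6 genes took 25.1%, 24.4% and 24.4% in set A and 18.5%, 11.1% and 16.7% in set B, a mean of 20.02% ± 5.59 (SD, n = 6). The sets did not overlap on that scale either. In bulk samples such as these, fewer cells of a type and less RNA per cell cannot be told apart.

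Levels between genes are compared in TPM, which is counts per kb of exon length (the longest protein-coding transcript) scaled, like CPM, to a common total in every library, ribosomal RNA included. Together the 6 genes reached 172353 TPM ± 58212 (SD, n = 6), with 222711 ± 10842 (SD, n = 3) in set A and 121994 ± 27317 (SD, n = 3) in set B. The chymotrypsins made up 59.9% ± 4.46 (SD, n = 6) of this and the elastases 40.1% ± 4.46. The elastase side lacks Cela2a, which was not measured here for the reason given with Ctrc below. The expected background, taken as the receptor genes' counts per Mb times a gene's span, was at most 0.00932% of the counts of Ctrb1, Ctrl, Cela1 and Cela3b in any library. For the scarcer pair it was at most 0.602% outside replicate 5, where it came to 3.21% for Ctrc and 4.64% for Cela3a.

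**Figure D1:**
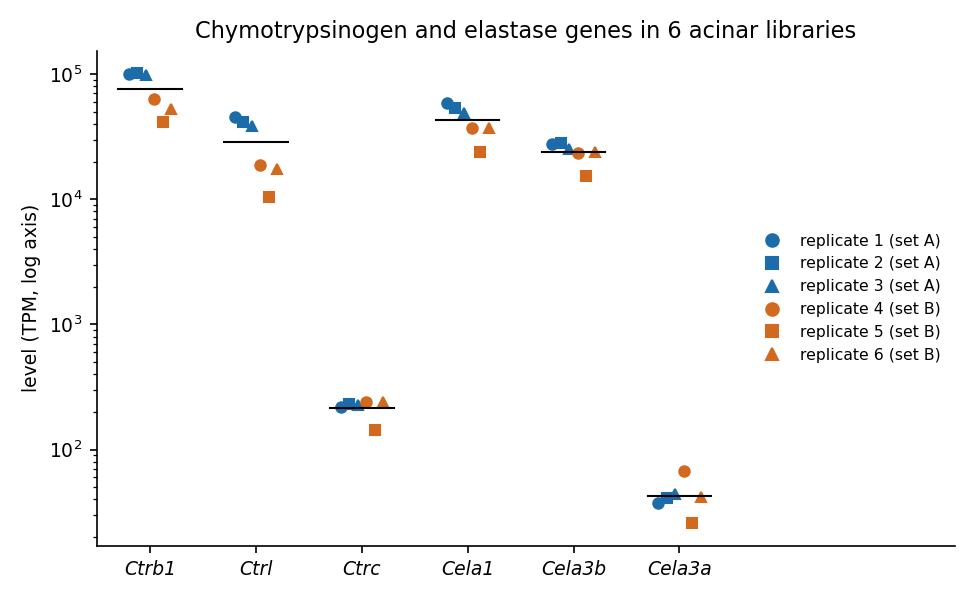
Level of each member in each library, in TPM on a log axis. Each point is 1 library (blue for set A, orange for set B) and each line is the mean over 6 libraries. Ctrb1 is the highest in every library, Ctrl, Cela1 and Cela3b lie between 10399 and 59165 TPM, and Ctrc and Cela3a lie at 241 TPM or below.

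Ctrb1 (ENSMUSG00000031957.6, chr8:111686519-111691010 in GRCm38, minus strand, 7 exons in 878 bp of transcript) encodes chymotrypsinogen B, the main chymotrypsin precursor. Its level was 99974, 101577 and 97742 TPM in replicates 1 to 3 and 63409, 41187 and 52985 TPM in replicates 4 to 6. Every library of set A was above every library of set B, and Ctrb1 ranked 1 among 21945 protein-coding genes in all 6 libraries. The mean was 76145 TPM ± 26839 (SD, n = 6), which is 44.0% ± 2.16 of the summed TPM of the 6 genes. That share ranged from 40.2% to 46.3% and overlapped between the sets.

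Ctrl (ENSMUSG00000031896.7, chr8:105932003-105933862, minus strand, 7 exons, 879 bp) encodes a chymotrypsin-like protease. It stood at 45507, 41565 and 38746 TPM in set A and at 18929, 10399 and 17564 TPM in set B. The sets lay far apart, and Ctrl was the most variable member on this scale, with a coefficient of variation of 51.6% around a mean of 28785 TPM ± 14855 (SD, n = 6). With ribosomal RNA left out of the total, Ctrl was at 42827 TPM ± 15682 (SD, n = 6) and Cela3a at 69.6 TPM ± 28.1. There the relative spread of Cela3a was the larger. Ctrl ranked 5 among protein-coding genes in each library of set A and 8 to 12 in set B. Its share of the family was 18.8% ± 0.673 (SD, n = 3) in set A and 12.7% ± 1.08 (SD, n = 3) in set B.

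Ctrc (ENSMUSG00000062478.16, chr4:141814962-141846359, minus strand) encodes chymotrypsin C, which in humans degrades trypsinogen within the pancreas and limits its activation. In the C57BL/6 reference strain the gene is known to carry a frameshift. GENCODE lists it as protein coding with 9 exons in 951 bp, where the gap between 2 of the exons is only 2 bp and the next shortest gap is 83 bp, and RefSeq lists it as a transcribed pseudogene. The counts of Ctrc were 1042, 812 and 900 in set A and 848, 320 and 863 in set B. Its level was 220, 230 and 227 TPM in set A and 239, 144 and 241 TPM in set B, where only replicate 5 stood below the rest. The mean of 217 TPM ± 36.6 (SD, n = 6) had the smallest coefficient of variation of the 6 genes on this scale, 16.9%. That place depended on the ribosomal RNA in the total. With it left out, Ctrc was at 346 TPM ± 74.5 (SD, n = 6) and Cela3b at 37720 TPM ± 4989, a smaller relative spread than that of Ctrc. Ctrc took 0.135% ± 0.0382 (SD, n = 6) of the summed TPM and still ranked 62 to 97 among protein-coding genes.

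The Ctrc value carries a limit from its locus. The tables count reads over whole gene spans, and the 31398-bp Ctrc span contains all 11199 bp of Cela2a, the gene of another pancreatic elastase, and overlaps the antisense gene Ctrcos by 2039 bp and Casp9 by 1015 bp. Cela2a was listed at 0 counts in all 6 libraries. Across the annotation, 1230 of 1230 protein-coding genes lying wholly inside the spans of other genes had no counts, against 1309 of 11878 (11.02%) genes free of overlap, so Cela2a was not measured here. Of the 951 bp of Ctrc exons, 633 bp (66.6%) lie outside other genes, and with that length its level came to 282 TPM ± 52.6 (SD, n = 6). Ctrcos itself had 1 to 12 counts a library. The strand setting of the counting is not given in the sources used here. The 1230 genes without counts were taken on either strand, so reads where Ctrc and Ctrcos overlap were probably counted for neither gene.

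**Figure D2:**
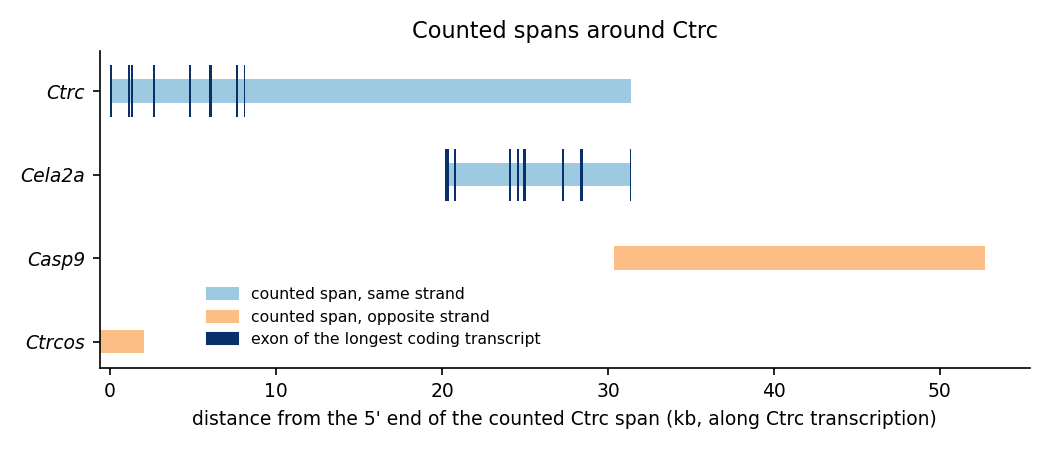
Counted spans around Ctrc along its direction of transcription, in kb from the 5′ end of its counted span. Light bars are spans (blue on the Ctrc strand, orange on the opposite strand, with Ctrcos reaching past the left edge), and dark bars are exons of the longest coding transcripts of Ctrc and Cela2a. The whole Cela2a span of 11199 bp lies inside the Ctrc span, and the first Ctrc exons lie inside Ctrcos.

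Cela1 (ENSMUSG00000023031.8, chr15:100674421-100687921, minus strand, 8 exons, 1108 bp) encodes chymotrypsin-like elastase 1. Its level was 59165, 53327 and 48802 TPM in set A and 37169, 23986 and 37013 TPM in set B. The sets did not overlap, and replicate 5 was again the lowest. Cela1 ranked 4 to 6 among protein-coding genes, with a mean of 43243 TPM ± 12904 (SD, n = 6) and 25.5% ± 1.81 of the family.

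Cela3b (ENSMUSG00000023433.8, chr4:137420999-137430540, minus strand, 8 exons, 926 bp) encodes another pancreatic elastase. It measured 27426, 28105 and 25401 TPM in set A and 23330, 15413 and 23843 TPM in set B. In TPM, whose total includes ribosomal RNA, the sets were apart by a small margin. As a share of counts outside ribosomal RNA genes, the sets of Cela3b overlapped. The coefficient of variation of its TPM, 19.1%, was well under that of Ctrl. The mean was 23919 TPM ± 4577 (SD, n = 6) and the rank 7 to 10. As a share of the family Cela3b went the other way from Ctrl, with 12.1% ± 0.353 (SD, n = 3) in set A and 17.1% ± 0.919 (SD, n = 3) in set B, and no library of one set reached the range of the other.

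Cela3a (ENSMUSG00000078520.3, chr4:137401554-137409791, minus strand, 8 exons, 958 bp) is the neighbour and close copy of Cela3b. It had 179, 145 and 178 counts in set A and 242, 58 and 150 in set B. Its level was 37.4, 40.7 and 44.6 TPM in set A and 67.7, 25.8 and 41.6 TPM in set B, so that the highest and the lowest library were both in set B. The mean was 43.0 TPM ± 13.7 (SD, n = 6), 0.0271% ± 0.0115 of the family.

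The value of Cela3a is uncertain because reads may be split between the copies. The Cela3a and Cela3b transcripts were identical at 866 of 916 aligned bases (94.5%), and 291 of 909 windows of 50 bases of Cela3a (32.0%) occurred unchanged in Cela3b. In the other 14 pairs of members the identity was 63.8% to 71.4% and 0 windows were shared. Cela3a counts were 0.141%, 0.150% and 0.181% of the Cela3b counts in set A and 0.3001%, 0.173% and 0.180% in set B. How reads that align to both copies were counted is not given in the sources used here, and its part in these values was not tested. With that limit, Cela3b was 555-fold above Cela3a (log2 difference 9.12 ± 0.38, SD, n = 6), although their upstream windows shown above differ at 18 of 237 aligned bases.

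**Figure D3:**
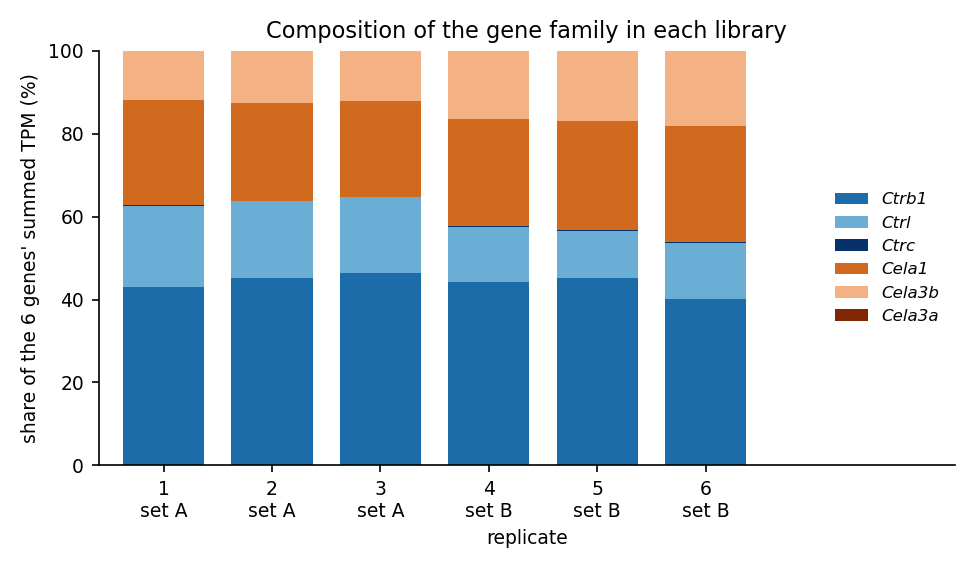
Share of the summed TPM of the 6 genes taken by each gene in each library, in percent. Blue segments are the chymotrypsins and orange segments the elastases, and Ctrc and Cela3a are too scarce to be seen. Chymotrypsins take 62.7% to 64.8% in the libraries of set A and 53.8% to 57.7% in set B. The elastase gene Cela2a was not measured and is not among the 6 genes.

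The order of the levels was tested within libraries, as each library measures all members. The test was an exact two-sided permutation of signs (64 patterns) of the difference in log2(TPM + 1), whose smallest possible p with 6 libraries is 0.031, adjusted by Benjamini-Hochberg over the 15 pairs of members. Of these, 14 pairs passed, each with the same direction in 6 of 6 libraries and an adjusted exact p of 0.0335. Ctrb1 exceeded Cela1 1.73-fold (log2 difference 0.79 ± 0.17, SD, n = 6), and Cela1 exceeded Ctrl 1.65-fold (0.72 ± 0.41). Cela3b exceeded Ctrc 110-fold (6.78 ± 0.15), and Ctrc exceeded Cela3a 5.07-fold (2.34 ± 0.27).

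Ctrl and Cela3b were neighbours in this order that the test did not separate, with a log2 difference of 0.10 ± 0.60 (SD, n = 6) and an adjusted exact p of 0.719. Ctrl was higher in the 3 libraries of set A and Cela3b in the 3 of set B. The length used matters for Ctrl, whose span holds few intron bases: with counts divided by the whole gene span, Cela1 minus Ctrl became −1.80 and Ctrl minus Cela3b 2.38 (adjusted exact p = 0.0361 for both). On that scale Ctrb1 minus Ctrl fell from 1.51 to 0.24 (adjusted exact p = 0.156) and Ctrc minus Cela3a from 2.34 to 0.38 (adjusted exact p = 0.067), so neither passed. With all annotated exons merged, which adds retained introns to Cela1, Cela3b and Ctrl, Cela1 minus Ctrl was 0.06 (adjusted exact p = 0.719).

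Ratios between members are free of the library total, and they moved between the sets. The log2 ratio of Ctrl to Cela3b was 0.73, 0.56 and 0.61 in set A and −0.30, −0.57 and −0.44 in set B. Ctrl was the higher gene in each library of set A and the lower in each of set B, a difference in the log2 ratio of −1.07, or 0.476-fold. The ratio of Ctrl to Cela1 differed by −0.73, from −0.36 ± 0.02 (SD, n = 3) to −1.08 ± 0.12 (SD, n = 3), and that of Ctrb1 to Ctrl by 0.52, from 1.25 ± 0.10 to 1.77 ± 0.20. In 12 of the 15 pairs the sets did not overlap, where 32.2% of all pairs of tested genes did not overlap. Each of the 12 gave an exact two-sided permutation p of 0.1, the smallest that 3 libraries against 3 allow, so no pair could pass 0.05. The sets overlapped in the ratios of Ctrb1 to Cela1 (0.90 ± 0.13 against 0.69 ± 0.15, exact p = 0.3), Ctrc to Cela3a (exact p = 0.6) and Cela3a to Cela3b (exact p = 0.3). The steadiest ratio across the 6 libraries was that of Ctrc to Cela3b, with an SD of 0.15 on the log2 scale, and the least steady that of Ctrl to Cela3a, with an SD of 0.86.

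**Figure D4:**
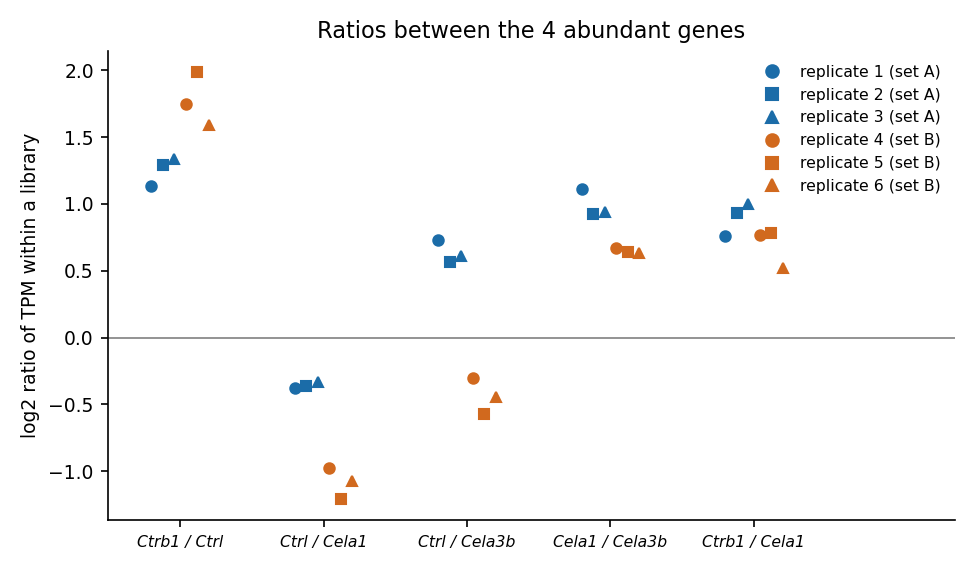
Log2 ratio of TPM within each library for 5 pairs of the 4 abundant members. Each point is 1 library (blue for set A, orange for set B). The ratio of Ctrl to Cela3b lies above 0 in set A (0.56 to 0.73) and below 0 in set B (−0.57 to −0.30), and the ratio of Ctrb1 to Cela1 overlaps between the sets.

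Between the sets, the members' counts were read from an edgeR quasi-likelihood fit of 8723 genes, in which all 6 members passed the filter on low counts. None of the 6 was called at an adjusted p of 0.05, where the fit called 0 of 8723 genes (0%) lower in set B and 1 (0.0115%) higher. At an unadjusted p under 0.05, 3 of the 6 members were lower in set B, against 9.76% of all genes (2258 genes in either direction). The difference of set B from set A on the log2 scale was −1.90 for Ctrl (SE 0.45, edgeR adjusted p = 0.0874), −1.41 for Ctrb1 (SE 0.42, adjusted p = 0.0943) and −1.20 for Cela1 (SE 0.43, adjusted p = 0.119). It was −0.85 for Cela3b (SE 0.40, adjusted p = 0.214), −0.59 for Ctrc (SE 0.35, adjusted p = 0.319) and −0.31 for Cela3a (SE 0.42, adjusted p = 0.686). In CPM scaled by edgeR's TMM factors, all 3 libraries of set B were below all 3 of set A for 5 of the 6 members, as for 17.2% of all genes tested. The exception was Cela3a, with 27.5, 27.6 and 30.5 scaled CPM in set A and 37.4, 9.62 and 22.1 in set B. For Ctrc and Cela3b the separation depended on the scale. In TPM, Ctrc was higher in replicates 4 and 6 (239 and 241) than in set A (220 to 230). As a share of counts outside ribosomal RNA genes, the sets of Cela3b overlapped.

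The call depended on replicate 5, the library with the highest background, and on the tool. Without replicate 5 edgeR called 4 of the 6 members lower in set B, where it called 4.07% of all genes lower. These were Ctrl (−1.59, adjusted p = 8.17e-05), Ctrb1 (−1.16, adjusted p = 0.000764), Cela1 (−0.93, adjusted p = 0.00466) and Cela3b (−0.58, adjusted p = 0.0431). The same 4 genes were called by DESeq2 over all 6 libraries, at −2.01, −1.53, −1.32 and −0.97, where 2.44% of all genes were called lower and the median difference over the 8723 genes was −0.15. Without replicate 4 edgeR called Ctrl (−2.25, adjusted p = 0.0206) and Ctrb1 (−1.78, adjusted p = 0.046), where 5.72% of all genes were called lower, and without any other library none of the 6. Ctrc and Cela3a were called under none of the settings tried, although the Ctrc difference of −0.59 became −0.30 without replicate 5 and −0.89 without replicate 4. The sets also differ in the share of ribosomal RNA, the background and the endocrine markers given above, and the part of these in the members' differences was not tested.

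**Figure D5:**
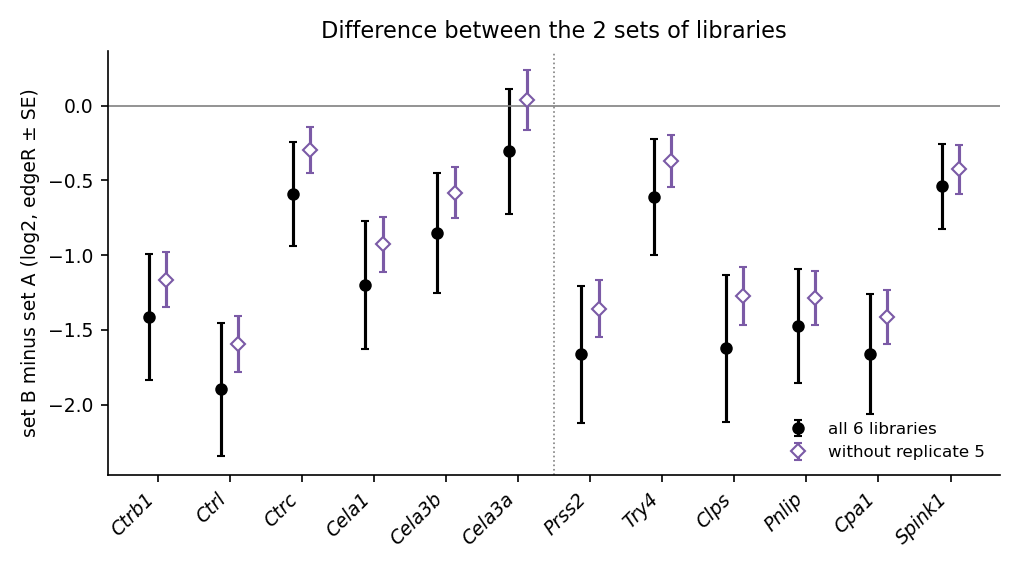
Difference of set B from set A in edgeR on the log2 scale with its SE, for the 6 members (left of the dotted line) and 6 other acinar genes, over all 6 libraries (filled) and without replicate 5 (open). Ctrl has the lowest value of the members (−1.90) and Cela3a the highest (−0.31), and the error bars are shorter without replicate 5.

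The other digestive enzyme genes give the setting of these values. Among 13 other acinar serine protease genes, 12 averaged at least 1 TPM, and the exception was Cela2a. The trypsinogen gene Prss2 reached 63745 TPM ± 28794 (SD, n = 6), a mean between those of Ctrb1 and Cela1, and the trypsinogen Try4 reached 33840 TPM ± 4024. Summed, these 13 genes came to 135736 TPM ± 41502 (SD, n = 6), against the 172353 TPM of the 6 members. Between the sets, the median log2 difference was −1.03 over the 6 members, −0.65 over 11 tested serine proteases, −1.49 over 12 tested lipases, carboxypeptidases, amylases and other enzymes, and −0.004 over all genes tested. The set B libraries were all below set A for 6 of the 11 serine proteases and for 11 of the 12 other enzymes. Over all genes tested this share was 17.2%. An unadjusted edgeR p under 0.05 was found for 5 of the 11 serine proteases and for 11 of the 12 other enzymes. Of the 5, Prss1, a scarce trypsinogen, differed in the other direction (1.02). Over all genes tested such a p was found for 2258 of 8723, in either direction.

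The inhibitor Spink1, which blocks trypsin that becomes active inside the gland, lay at 2304 to 2510 TPM in set A and 2274 to 2511 TPM in set B, a mean of 2407 ± 100.2 (SD, n = 6), while the summed members differed from 91153 to 232328 TPM. On the scale of the edgeR fit its set difference was −0.54 (SE 0.28, adjusted p = 0.261). In TMM-scaled CPM all libraries of set B were below all of set A for both inhibitors tested, Spink1 and Serpini2. The same held for 17.2% of all genes tested. Serpini2, a serpin of acinar cells, had 296 TPM ± 29.7, and 3 of 9 inhibitor genes in the tables reached a mean of 1 TPM, of which Slpi did so through replicate 5 (1.67 TPM ± 2.30, SD, n = 6, and 0.737 ± 0.258, SD, n = 5, without it). Tmprss15, the gut enteropeptidase that activates trypsinogen, had 1.33 TPM ± 2.52 (SD, n = 6), with 63 of its 88 counts in replicate 5 and 0.31 TPM ± 0.366 (SD, n = 5) without that library. Of the Tmprss15 counts 91.2% were matched by the expected background. Of 8 genes of mast cell and leukocyte granule proteases, only Cpa3 reached 1 TPM (2.82 TPM), and Elane and Mcpt4, the neutrophil elastase and a mast cell chymase, were at 0 counts, where 3 counts would be 0.424 to 0.642 CPM.

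The PTF1 complex and other acinar transcription factors were a list of 13 genes, of which 12 averaged at least 1 TPM. Ptf1a stood at 10.4 TPM ± 2.33 (SD, n = 6), its partner Rbpjl at 52.1 ± 14.98, Bhlha15, a regulator of acinar secretory maturation, at 28.8 ± 5.73, and Nr5a2 at 5.32 ± 1.38. Over 12 tested genes of the list, the median set difference was −0.18 on the log2 scale, and 7 were lower in set B. The 12 differences ran from −1.37 for Xbp1, −0.91 for Rbpjl and −0.82 for Ptf1a to 0.67 for Rbpj and 0.79 for Gata6. The expected background was 47.9% of the Rbpj counts and 12.8% of the Gata6 counts. For Xbp1, Rbpjl and Ptf1a it was 0.104%, 0.235% and 0.291%. Background was higher in set B, and its part in these differences was not tested. Without replicate 5 the difference was 0.41 for Rbpj and 0.95 for Gata6. An unadjusted edgeR p under 0.05 was found for 2 of the 12, Xbp1 and Ptf1a, against 2258 of all 8723 genes. Only 35.5% of the Ptf1a exons lie outside other genes, the limit described for Ctrc.

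Across the 6 libraries, 5 non-member genes kept the most constant ratio to the summed counts of the members, among 225 protein-coding genes of 50 TPM or more. Likeness is the SD over libraries of the log2 ratio, with a median of 0.526 over those genes. It was 0.070 for Zg16, a lectin of the zymogen granule, 0.079 for Xbp1, a transcription factor of the unfolded protein response, and 0.079 for the trypsinogen-like 2210010C04Rik. Pdia2, a pancreatic protein disulfide isomerase, had 0.087 and the kallikrein Klk1 0.098. All 6 libraries share the split into sets, so these values describe 6 points in 2 clusters. Among the members, which are part of the sum, the value was 0.079 for Ctrb1, 0.095 for Cela1, 0.270 for Cela3b, 0.333 for Ctrl, 0.407 for Ctrc and 0.572 for Cela3a.

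The nearest single genes differed between the members. Ctrl kept its most constant ratio to the trypsinogen Prss2 (SD 0.133) and the bile salt-activated lipase Cel (0.140), and Ctrb1 to 2210010C04Rik (0.093). Cela1 was closest to the ferritin gene Fth1 (0.068), and Cela3b to the protease inhibitor Spint2 (0.032) and the phospholipase Pla2g1b (0.044). Ctrc was closest to the translation factor Eef1b2 (0.042) and Cela3a to the ATP synthase gene Atp5h (0.141). These are descriptions over 6 libraries of 1 group.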

How the data were processed

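The authors' files hold raw counts per gene symbol, and the columns deposited with them show that counts cover whole gene spans. Per the submitters' processing notes, reads were trimmed with Trim Galore 0.6.4, checked with FastQC, aligned with STAR 2.7.9a to mm10 and counted with featureCounts, with SAMtools also named. The annotation release, strand setting and handling of multiply aligned reads are not given in the sources used here. In the labels the molecule is genomic DNA, whereas titles and protocol speak of RNA-seq.

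From the counts, TPM was computed with exon lengths from GENCODE vM21 (GRCm38), found for 55131 of 55367 symbols holding 99.96% of the counts. The longest protein-coding transcript was used as the length, a choice made after values were seen, because merged exons of Cela1, Cela3b and Ctrl include retained introns. Levels were tested as log2(TPM + 1). Background was estimated over 1491 olfactory and vomeronasal receptor genes (13.0 Mb, 7561 counts). The set comparison used the quasi-likelihood test of edgeR 4.0.16 after filterByExpr and TMM (Benjamini-Hochberg, threshold 0.05), and the edgeR script was tested on simulated data. DESeq2 1.42.0, limma 3.58.1, R 4.3.3, Python 3.11.15, pandas 2.3.3, scipy 1.17.1, Biopython 1.88 and matplotlib 3.10.9 were also used. Libraries were compared pairwise by a chi-square per gene, which was 8.30 to 208, and none was a duplicate. Upstream sequences and their motif shares come from RefSeq.

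Named are the 6 members, the 5 genes of 50 TPM or more with the most constant ratio to the summed members, and genes of the lists with 1 TPM or more. The nearest genes of single members, and genes of the lists named at 0, were chosen after their values were seen. The members and lists were chosen with earlier results of these data known. Alternatives tried were other gene lengths, denominators, pseudocounts, background subtraction, normalizations, tools and filters, and leaving out each library.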

Additional observations from a re-analysis of the deposited data

Results flagged for a closer look

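In 16 sets of 6 library values, the gap of the highest or lowest library to its neighbour was set against the whole range, and 3 exceeded Dixon's 95% critical value. Chance alone would set apart about 5% of such groups. The background in receptor genes was 327 counts per Mb in replicate 5, against 26.4 to 109 in the others. Ctrc was at 144 TPM in replicate 5, against 220 to 240.9 TPM in the others. Cela3a counts were 0.3001% of Cela3b counts in replicate 4, against 0.141% to 0.181% in the others. Replicate 5 also had the fewest total counts, 4670819.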

How the results depend on the processing

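The share of counts taken by the 6 genes was 20.02% outside ribosomal RNA genes and 20.4% of protein-coding nuclear genes, and 9.10% to 11.3% when each library was left out. Their summed level was 60907 TPM by whole gene span, 101700 CPM without a length and 264269 TPM with ribosomal RNA left out of the total, and 160358 to 188593 TPM without single libraries. Ctrb1 took 41.0% of the summed level in CPM and 57.6% with merged exons, a setting added after seeing the data, and 43.6% to 44.8% without single libraries. With any library left out 0 pairs passed, because 5 libraries allow no exact p under 0.0625 (0.067 after adjustment here), and limma over 6 libraries passed the same 14 pairs. Reversed in sign were Cela1 minus Ctrl by whole gene span (−1.80), Ctrl minus Cela3b without replicate 1 (−0.027) and replicate 3 (−0.0030), with a range of −0.027 to 0.23 without single libraries, and the set difference of Cela3a without replicate 5 (0.038), with a range of −0.94 to 0.038. The cause was not tested. Between the sets 789 genes were called by DESeq2, 993 without the filter on low counts, and 0 to 2217 in edgeR with a library left out, at 735 without replicate 5 and 2217 without replicate 4. Without the filter none of the 6 members was called. Of the 5 genes nearest to the members 3 remained at 20 TPM or more. Members were paired within libraries, but no pairing of samples between groups was possible, because the labels give 1 group. Counts of 58 to 320 for Cela3a and Ctrc in replicate 5 limit their precision there.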
